A study of Mus musculus with 46 samples.

Results

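The 39 genes described here encode proteins of homologous recombination, the Fanconi anemia pathway and the ATR and ATM checkpoint. They were chosen by symbol, from a list, among the 24537 genes of each of 8 gene tables, and all 39 were measured in every table. Homologous recombination repairs a broken chromosome by copying the intact sister: the ends are resected, a recombinase filament is loaded with the help of Brca1, Bard1, Palb2 and Brca2, and the joined molecules are dissolved or cut. The Fanconi proteins detect crosslinked or stalled forks and attach ubiquitin to Fancd2 and Fanci, and the kinases Atr and Atm signal through Chek1 and Chek2 to hold the cell cycle while damage is repaired. Most of these genes are transcribed in late G1 and S phase, so their RNA is commonly higher in dividing cells.

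The study sequenced RNA of mouse tumors and cultured cells that differed in Arid1a, which encodes a subunit of the BAF (SWI/SNF) chromatin remodeller that binds DNA, in 46 samples forming 23 groups of 2. B16F10 melanoma cells carrying either the guide sgScramble, a control, or the Arid1a-targeting guide sgArid1a were taken as subcutaneous tumors on day 15, as untreated cultures, after 72 h with DMSO, and with PBS or after 24 h with interferon-gamma (IFNγ). Further sgArid1a cultures were kept for 72 h with anti-IFNAR, an antibody that blocks the receptor of type I interferons, or with ruxolitinib, which inhibits the kinases JAK1 and JAK2, and untreated cultures labelled sgArid1a/sgCgas or sgArid1a/sgSting carried a further guide. The titles of these double knockout samples name B16F10, but their cell line labels read B16F11, B16F12, B16F13 and B16F14, so a difference of line cannot be told apart from the further guide in their comparisons. B16F10 cells with sgScramble received DMSO, the code-named compound BD98, or BD98 with anti-IFNAR for 72 h. MC38 colon carcinoma cells carried sgScramble or sgArid1a, and Arid1a fl/fl mouse embryonic fibroblasts (MEFs) were given ethanol (wild type) or tamoxifen (Arid1a -/-) and taken on day 5. A further 4 total RNA libraries, made for repeat elements, were not used. The labels state neither whether a guide line is a pool or a clone nor what drives the recombinase in the MEFs. A tumor also holds cells of its host. Total reads per library ranged from about 8700000 to 38800000. Nothing in the labels says that the 2 libraries of a group come from separate cultures or animals, so a p-value here reflects the spread of these libraries, which may be technical.

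Arid1a RNA bore on the labels in part. The authors' log2 value was lower in every sgArid1a library than in every sgScramble library of the tumors, the untreated cultures and MC38 cells, and lower in every tamoxifen than in every ethanol MEF library. With DMSO it was 11.76 and 11.29 against 11.29 and 11.24, which overlap. With PBS it was 12.42 and 12.40 in the libraries labelled sgScramble and 12.25 and 12.40 in those labelled sgArid1a, and with IFNγ 11.997 and 12.11 against 12.15 and 12.13, so the guide labels of that experiment were not borne out. Arid1a was at 11.03 and 10.74 under the Cgas double knockout label, and at 10.71 and 10.83 under the Sting double knockout label, against 10.43 and 10.39 in untreated sgArid1a cells and 10.90 and 11.08 in sgScramble cells. All 4 double knockout libraries thus lay above both sgArid1a libraries, and 1 of them lay between the 2 controls. Mb21d1, which encodes cGAS, was at 8.03 and 7.98 with the Cgas label against 8.06 and 7.96 in sgArid1a cells, and Tmem173, which encodes STING, at 9.04 and 8.87 with the Sting label against 9.47 and 9.51. A guide need not lower the RNA of its target. All 8 melanocyte markers were present in every B16F10 group and 6 of 8 fibroblast markers in MEFs at a mean log2 value no lower than 4. None of 9 colon epithelium markers reached that level in MC38 cells.

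In tumors 24 of the 39 genes were lower with sgArid1a and 1 was higher. A gene is called here at an adjusted p under 0.05 in limma, over all genes tested in the table. Of the 13895 genes tested in tumors, 28.1% were called lower and 26% higher. The median log2 fold change of the 39 genes was -0.25, against -0.02 for all tested genes. By role, 8 of 12 recombination genes, 4 of 7 genes of end resection and resolution, 6 of 10 Fanconi genes and 6 of 10 checkpoint genes fell.

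Brca1, whose product with Bard1 is a ubiquitin ligase that promotes resection and loads the recombinase, was at 13.03 and 13.10 (log2 value) in the sgScramble tumors and at 11.87 and 11.86 in the sgArid1a tumors. The 2 tumors of a group lay close together and the 2 groups far apart. The log2 fold change was -1.20 ± 0.06 (SE, n = 2 per group, adjusted p = 9.76e-09), which ranked 44 from the lowest of the 13895 genes. The authors' deposited table gives -1.30 for the same gene. The other recombination genes fell by less: Rad51b, a paralog of the recombinase, by 0.35, Rad51ap1, which stimulates it, by 0.34, Palb2, the bridge between Brca1 and Brca2, by 0.29, Bard1 by 0.28, Brca2 by 0.27 and the translocase Rad54l by 0.26. Lrrc41, which shares 1184 exon bases with Rad54l on the opposite strand, was at -0.08 and did not pass. Xrcc2 fell by 0.21. Rad51c, Rad51d, Rad52 and Xrcc3 did not pass, at -0.15, -0.17, -0.16 and -0.14.

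Fanca, a subunit of the Fanconi core ubiquitin ligase, was at 11.10 and 11.09 in sgScramble tumors and at 10.18 and 10.30 in sgArid1a tumors. Both sgArid1a tumors lay below both controls, with a log2 fold change of -0.86 ± 0.07 (n = 2 per group, adjusted p = 5.00e-07). Fanca exons share 920 bases with Zfp276 on the opposite strand, and Zfp276 was at -0.31 ± 0.06. The strand setting of the counting is not given, so whether it separated reads of overlapping genes on opposite strands is not known. Fancd2, the substrate of the core complex, was at 11.15 and 11.20 against 10.79 and 10.70, a fall of 0.44 ± 0.06 (adjusted p = 0.000103). Its partner Fanci was at 11.17 and 11.24 against 10.84 and 10.82, a fall of 0.38 ± 0.06 (adjusted p = 0.000254). Groups did not overlap for either gene. Fanci exons share 921 bases with Polg on the opposite strand, which was at -0.11 ± 0.06 and did not pass. The helicase Brip1 fell by 0.36, Fance by 0.31 and Fancf by 0.20, and Gas2, which overlaps Fancf by 253 bases on the opposite strand, fell by 0.32, whereas Fancc, Fancg, Fancl and Fancm lay between -0.07 and 0.13 and did not pass.

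Among checkpoint genes, Clspn, the adaptor through which Atr phosphorylates Chek1, was at 10.38 and 10.47 in sgScramble tumors and at 10.02 and 10.05 in sgArid1a tumors, a fall of 0.39 ± 0.07 (n = 2 per group, adjusted p = 0.000334). The fork protection pair Timeless and Tipin fell by 0.35 and 0.33. Chek1 was at 10.18 and 10.41 against 10.03 and 9.98, with no overlap, so that the higher of the sgArid1a tumors was close to the lower of the controls. The log2 fold change was -0.29 ± 0.08 (adjusted p = 0.00873). Topbp1, which activates Atr, fell by 0.27, and the kinase Wee1, which restrains entry into mitosis, by 0.22. Atm was at 11.17 and 11.24 against 11.20 and 11.11. These values overlap, and the difference was -0.05 ± 0.06 (adjusted p = 0.496). Atr and Atrip were at 0.15 and 0.10 and did not pass, and Trex1, which shares 1147 exon bases with Atrip on the same strand, was at 0.07.

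Of the end-processing genes, all 3 members of the Mre11 complex, which senses and trims broken ends, fell: Mre11a by 0.33, Nbn by 0.27 and Rad50 by 0.25. The helicase Blm fell by 0.22. Eme1, the partner of Mus81 in a nuclease that cuts joined molecules, was the 1 member called higher, at 10.59 in both sgScramble tumors and 10.83 and 10.77 in sgArid1a tumors (0.20 ± 0.06, adjusted p = 0.0145). Eme1 exons share 221 bases with Lrrc59 on the opposite strand, which was at 0.27 ± 0.06. Without sgArid1a replicate 1, Eme1 no longer passed (adjusted p = 0.149).

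Other recombination and checkpoint genes also fell in tumors, where 28.1% of all tested genes were lower and 26% higher. Of 38 other recombination genes 23 fell and 1 rose, and of 27 other checkpoint genes 20 fell and 1 rose. Of 17 other Fanconi genes 5 fell, a share close to that of all genes. Rmi2, a subunit of the complex that dissolves joined molecules, fell by 0.86, and the phosphatase Cdc25b by 0.89. Among 12 end joining genes, whose median was -0.13, 5 were lower and 1 higher. S phase genes fell in 31 of 33 and G2 and M phase genes in 25 of 26, with medians of -0.48 and -0.49, both lower than the median of the 39 genes. Gins2, a subunit of the replicative helicase, fell by 0.79, and the transcription factor Mybl2 by 0.87.

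Markers of other cells also differed between the tumors. The log2 of the summed linear levels of a marker list is called its sum here. The sum of 10 macrophage markers was 14.01 and 14.03 in the sgScramble tumors and 14.9 in both sgArid1a tumors. That of 10 muscle markers was 10.8 and 10.9 against 13.6 and 13.7. All 10 of each were called higher, and all 5 erythroid markers lower. The sum of 8 melanocyte markers was 19.7 in both sgScramble tumors and 19.3 in both sgArid1a tumors. Pmel, Tyr, Dct, Tyrp1 and Slc45a2 lay below both controls in both sgArid1a tumors. Mitf went the other way, at 14.39 and 14.45 in sgScramble tumors against 14.77 and 14.73, and Mlana and Sox10 overlapped. Of 7 endothelial markers, with sums of 12.3 and 12.4 against 12.6 in both, 6 were higher and 1 lower. T cell markers, with sums of 8.40 and 8.48 against 8.74 and 8.79, were higher in 4 of 4 tested, and of 8 fibroblast markers 3 were higher and 3 lower. None of the macrophage, muscle, erythroid, endothelial and melanocyte markers was at 0 in any tumor. In bulk RNA, fewer cells of a type and less RNA per cell cannot be told apart, and the part of these differences in the falls of the 39 genes was not tested.

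**Figure D1:**
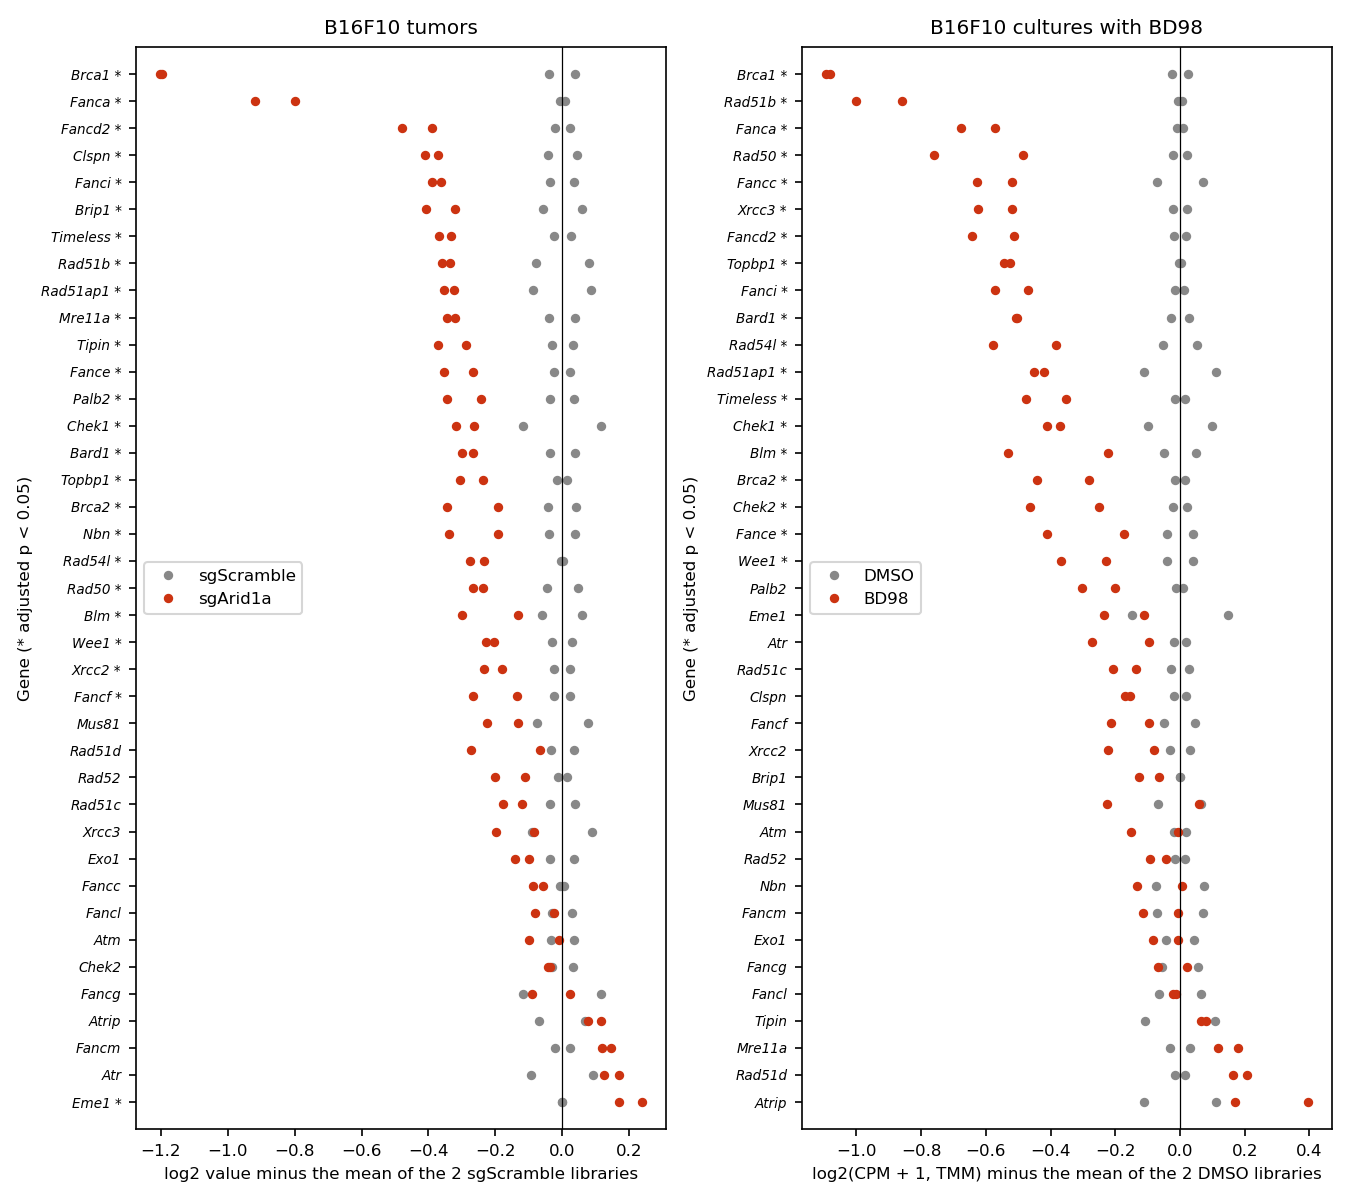
Each point is 1 library, drawn as its log2 value minus the mean of the 2 control libraries for that gene, for tumors (left, control sgScramble) and for cultures with BD98 (right, control DMSO); stars mark adjusted p under 0.05. In tumors both sgArid1a points of Brca1 lie about 1.20 below the controls and those of Atm among them; with BD98 the genes with the largest falls are Brca1 and Rad51b.

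BD98 lowered many of the same genes in culture. Of the 39 genes 19 were called lower and 0 higher by edgeR's quasi-likelihood test, where 25.4% of 12843 tested genes were lower and 24.5% higher. The share lower went with transcript length. It was 36.6% of all tested genes of at least 5000 bases, 26.3% from 2000 to 5000 and 17.3% under 2000. Of the members in these classes 6 of 13, 11 of 19 and 2 of 7 were lower. The part of length was not tested. With no adjustment 22 of the 39 had p under 0.05, and the share of all genes at that threshold is not given here. The median of the 39 genes was -0.27, and that of all tested genes 0.01. By role, 7 of 12 recombination genes, 2 of 7 end-processing genes, 5 of 10 Fanconi genes and 5 of 10 checkpoint genes fell.

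Brca1 had 5051 and 3312 reads in the DMSO libraries and 1438 and 1540 in the BD98 libraries. As log2(CPM + 1), with CPM the read count scaled to library size by TMM, these were 7.83 and 7.88 against 6.77 and 6.76. The groups did not overlap, and the log2 fold change was -1.10 ± 0.07 (n = 2 per group, adjusted p = 6.14e-13). Rad51b, with 296 and 186 reads against 81 and 98, was at 3.83 and 3.82 against 2.83 and 2.97, and fell by 1.03 ± 0.16 (adjusted p = 6.51e-06). Its reads are fewest among the genes with a large fall, and its standard error is the widest of them.

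Fanca was at 7.02 and 7.003 in the DMSO libraries and 6.44 and 6.33 in the BD98 libraries, a fall of 0.63 ± 0.07 (adjusted p = 8.40e-08), and Zfp276, which overlaps it, was at -0.53 ± 0.09. Rad50, the coiled-coil ATPase of the Mre11 complex, was at 7.21 and 7.17 against 6.43 and 6.71, a fall of 0.62 ± 0.08 (adjusted p = 4.08e-07). Fancc, another core complex subunit, was at 4.65 and 4.51 against 4.06 and 3.95, a fall of 0.61 ± 0.12 (adjusted p = 0.000207). In each of these genes both BD98 libraries lay below both DMSO libraries. Fanci fell by 0.53, and Polg, which overlaps it, by 0.27. Rad54l fell by 0.49, whereas Lrrc41, which overlaps it, rose by 0.30. Fancd2 was at 7.05 and 7.09 against 6.42 and 6.55, and Chek1 at 5.86 and 6.06 against 5.59 and 5.55, falls of 0.58 and 0.40. Atm was at 6.86 and 6.82 against 6.68 and 6.83, which overlap, and its difference of -0.08 ± 0.07 did not pass (adjusted p = 0.407). Mre11a and Nbn, which fell in tumors, were at 0.15 and -0.07 with BD98 and did not pass.

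Of the genes that fell in tumors, 16 also fell with BD98. They are 66.7% of the 24 lower in tumors and 84.2% of the 19 lower with BD98, and 12 of the 39 were lower in neither. Of the 12483 genes tested in both experiments, the genes lower in both were 38.5% of those lower in tumors and 45% of those lower with BD98. Lower in both were 41% of the 39 genes and 11.6% of the 12483. The 16 were Brca1, Bard1, Brca2, Rad51ap1, Rad54l, Rad51b, Rad50, Blm, Fanca, Fance, Fancd2, Fanci, Topbp1, Timeless, Chek1 and Wee1. The 2 experiments share no library. Xrcc3 and Fancc fell by 0.58 and 0.61 with BD98 and were at -0.14 and -0.07 in tumors, and Clspn fell by 0.39 in tumors and was at -0.17 with BD98. Tumors and BD98 cultures were normalized separately, and the difference between these fold changes was not tested.

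**Figure D2:**
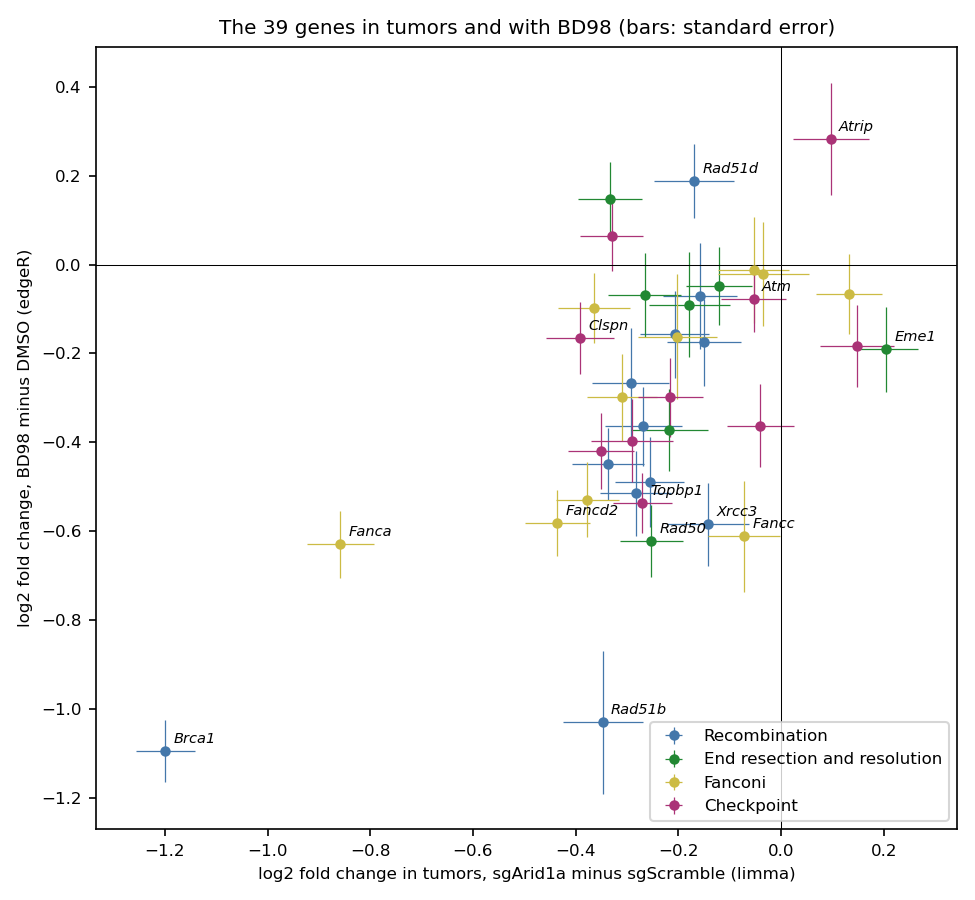
Each point is 1 of the 39 genes, with its log2 fold change in tumors (horizontal, limma) and with BD98 (vertical, edgeR), coloured by role, and bars of 1 standard error. Brca1 lies lowest on both axes, at -1.20 and -1.10, Fanca at -0.86 and -0.63, and Atm close to 0 on both.

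The other lists were mixed with BD98. S phase genes fell in 20 of 33 and rose in 2, G2 and M phase genes fell in 23 of 26, and of 27 other checkpoint genes 16 fell and 3 rose. Among 38 other recombination genes 12 fell and 6 rose, among 17 other Fanconi genes 5 fell and 3 rose, and among 12 end joining genes 1 fell and 1 rose. The kinase Cdk2 fell by 1.54, more than any of the 39. All 8 melanocyte markers fell, and the log2 of their summed linear levels was 15.1 in both DMSO libraries and 13.4 and 13.5 in the BD98 libraries. The part of this change in the falls of the 39 genes was not tested.

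Adding anti-IFNAR to BD98 raised 1 of the 39 genes, Topbp1, where 0.109% of genes were called higher and 1.39% lower. Topbp1 was at 8.17 and 8.16 in the DMSO libraries, 7.64 and 7.62 in those given BD98, and 7.94 and 7.85 in those given both agents. Its values with both agents lay between the other 2 groups, and its rise over BD98 alone was 0.26 ± 0.07 (n = 2 per group, adjusted p = 0.0446). Brca1 was at 6.98 and 7.02 with both agents, above the 6.77 and 6.76 of BD98 alone, with a difference of 0.24 ± 0.07 that did not pass (adjusted p = 0.102). The median of the 39 genes was 0.11. Of the 39, 12 had an unadjusted p under 0.05, and the share of all genes at that threshold is not given here. The call of Topbp1 was lost without either library with both agents, and the count of calls was 5 without BD98 replicate 2 and 2 without BD98 replicate 1.

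Promoter sequences are shown for 4 genes whose RNA moved most or in opposite directions, to let the sequence be read beside the values. Of the 39 genes, 31 have an entry in the RefSeq promoter table (GRCm38.p6), which spans 250 bases before to 50 bases after each start. The windows were searched on both strands for E2F-type sites, the binding sequence of the factors that switch on S phase genes, spelled TTTCCCGC, TTTCGCGC, TTTGCCGC or TTTGGCGC, for the CCAAT box, and for the cell cycle element TTTGAA. An E2F-type match was found in 7 of the 31 (22.6%), against 2.6% of 27025 genes with a window. A CCAAT match was found in 18 (58.1%, against 41.1%) and TTTGAA in 3 (9.68%, against 20.2%). In the 31 genes no match of 1 motif overlapped a match of another. Capitals mark E2F-type and CCAAT matches on either strand in the 250 bases before the start.
Brca1: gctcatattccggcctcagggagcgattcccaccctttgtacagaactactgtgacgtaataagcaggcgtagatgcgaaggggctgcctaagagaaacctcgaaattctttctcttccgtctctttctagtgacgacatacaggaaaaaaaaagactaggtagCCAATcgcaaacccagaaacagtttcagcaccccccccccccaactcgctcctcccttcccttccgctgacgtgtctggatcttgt
Fanca: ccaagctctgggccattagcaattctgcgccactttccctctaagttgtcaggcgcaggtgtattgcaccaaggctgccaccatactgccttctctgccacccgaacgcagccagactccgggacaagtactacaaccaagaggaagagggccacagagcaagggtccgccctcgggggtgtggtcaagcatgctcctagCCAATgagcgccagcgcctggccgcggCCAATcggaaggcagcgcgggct
Brca2: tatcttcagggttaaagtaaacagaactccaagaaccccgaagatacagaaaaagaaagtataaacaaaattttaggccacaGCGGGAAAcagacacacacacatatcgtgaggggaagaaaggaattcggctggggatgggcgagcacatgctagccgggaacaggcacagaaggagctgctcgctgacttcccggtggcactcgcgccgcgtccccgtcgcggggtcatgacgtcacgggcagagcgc
Topbp1: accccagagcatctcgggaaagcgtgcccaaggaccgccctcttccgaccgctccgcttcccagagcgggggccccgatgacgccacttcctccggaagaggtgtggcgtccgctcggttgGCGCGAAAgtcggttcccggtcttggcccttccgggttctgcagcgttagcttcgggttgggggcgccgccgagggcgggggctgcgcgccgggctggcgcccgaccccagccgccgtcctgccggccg
These windows lie at chr11:101551956-101552205 on the minus strand for Brca1, chr8:123318577-123318826 on the minus strand for Fanca, chr5:150522371-150522620 on the plus strand for Brca2 and chr9:103305077-103305326 on the plus strand for Topbp1. The genes themselves span chr11:101488764-101551955 (Brca1), chr8:123268244-123318576 (Fanca), chr5:150522621-150570146 (Brca2) and chr9:103305327-103350427 (Topbp1) in the same build. Brca1 holds 1 CCAAT box and Fanca 2, and neither has an E2F-type match of these letters, while Brca2 and Topbp1 each have 1. In tumors 4 of the 7 genes with an E2F-type match fell and 14 of the 24 without one, and with BD98 4 of 7 and 12 of 24. A match is a description of letters and not of binding.

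In untreated cultures, the same guides gave no general fall. Of the 39 genes 2 were higher with sgArid1a and 0 lower, where 5.84% of 11604 genes were higher and 5.98% lower. The members' share of rises was thus close to that of all genes. The median was 0.10, against 0.01 for all tested genes. Exo1, the nuclease that extends resection, was at 9.21 and 9.15 in sgScramble cells and 9.61 and 9.73 in sgArid1a cells, a rise of 0.50 ± 0.09 (n = 2 per group, adjusted p = 0.00446). Topbp1 was at 11.20 and 11.28 against 11.58 and 11.53, a rise of 0.32 ± 0.09 (adjusted p = 0.0309). Neither gene's groups overlapped. Brca1 was at 11.37 and 11.30 against 11.17 and 11.20, and Fancd2 at 10.29 and 10.18 against 10.17 and 10.15. Both sgArid1a values of each lay below the controls, but the differences of -0.15 ± 0.09 and -0.08 ± 0.10 did not pass. Chek1 was at 9.57 and 9.49 against 9.66 and 9.90, and Atm at 10.03 and 10.10 against 10.34 and 10.31, differences of 0.25 and 0.26 that did not pass. Clspn, at 0.42 ± 0.13, did not pass either (adjusted p = 0.0631), and Brca2 was at -0.32 ± 0.12 (adjusted p = 0.0971).

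S phase genes rose in 14 of 33 in these untreated cultures, with a median of 0.30, and G2 and M phase genes in 3 of 26. The S phase regulator Uhrf1 rose by 0.61, and Tonsl, which reads new chromatin at forks, by 0.58. Of 38 other recombination genes 4 rose and 1 fell, and of 26 other checkpoint genes 1 rose. The count of members called depended on single libraries: it was 7 (5 higher, 2 lower) without sgScramble replicate 2, 1 without sgScramble replicate 1 or without sgArid1a replicate 1, and 0 without sgArid1a replicate 2. The sgScramble replicate 1 library was the shallowest, at 8700000 reads.

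The same guides were also compared in cultures with DMSO. By limma, 0 of the 39 were called in either direction, where 3.5% of 11783 genes were higher and 4.38% lower. Of the 39, 8 had an unadjusted p under 0.05, with the share of all genes at that threshold not given here. The median was 0.02. Brca1 was at 11.62 and 11.52 in sgScramble and 11.42 and 11.47 in sgArid1a cells (-0.12 ± 0.08), Fancd2 at 10.78 and 10.70 against 10.84 and 10.72 (0.04), Chek1 at 10.55 and 10.71 against 10.59 and 10.48 (-0.09), and Atm at 11.01 and 10.88 against 11.23 and 11.08 (0.21 ± 0.09). Groups overlapped for Fancd2 and Chek1 and not for Brca1 and Atm. Exo1 and Topbp1, called in untreated cultures, were at 0.27 and 0.20 (adjusted p = 0.0603 and 0.193). The count of 0 depended on single libraries: leaving out either sgScramble library gave calls, in a fit with a single sgScramble library left. The share of all genes called in those fits is not given here.

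MC38 cells showed small differences on the authors' log2 scale. Of the 39 genes 2 were higher and 2 lower with sgArid1a, all 4 of them checkpoint genes, where 8.33% of 11516 genes were higher and 12.9% lower. The members' share was thus below that of all genes in both directions. With libraries centred on their median, 3 were higher and 1 lower. Timeless was at 10.28 and 10.25 in sgScramble and 10.42 and 10.40 in sgArid1a cells (0.14 ± 0.03, n = 2 per group, adjusted p = 0.000665), and its partner Tipin went the other way, at 9.95 and 9.93 against 9.80 and 9.83 (-0.13 ± 0.03, adjusted p = 0.00187). Chek1 was at 9.26 and 9.17 against 9.13 and 9.12 (-0.09 ± 0.03, adjusted p = 0.0361), and Chek2 at 8.83 and 8.85 against 8.91 and 8.92 (0.08 ± 0.03, adjusted p = 0.0481). The groups of all 4 were apart, though the gaps were small. Timeless is the 1 member that passes in the authors' deposited table. Brca1 was at 10.11 and 10.09 against 10.12 and 10.14, Fancd2 at 9.80 and 9.83 against 9.87 and 9.82, and Atm at 10.25 and 10.28 against 10.30 and 10.31, none of which passed. G2 and M phase genes fell in 15 of 26, with a median of -0.09. Without sgArid1a replicate 1 none of the 39 was called, and without sgScramble replicate 1 or sgArid1a replicate 2 only 2 were.

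In MEFs limma called 2 of the 39 genes higher after Arid1a deletion and 0 lower, where 4.69% of 12184 genes were higher and 5.01% lower, so the members' share was close to that of all genes. The 2 were Brca1 and Brca2, and in this fit, without pairing, both calls rested on single libraries. With same-numbered libraries fitted as a block, limma called both (adjusted p = 1.83e-09 for Brca1 and 1.95e-06 for Brca2). More of the 39 were called in that fit, as given in the closing section. The labels do not say what the replicate numbers mark. Brca1 was at 9.78 and 9.73 with ethanol and 10.01 and 9.92 with tamoxifen, a rise of 0.21 ± 0.06 (n = 2 per group, adjusted p = 0.0445). Brca2, which carries the recombinase to the break, was at 8.51 and 8.46 against 8.70 and 8.66, a rise of 0.20 ± 0.05 (adjusted p = 0.0403). Fancd2 was at 9.08 and 9.14 against 9.27 and 9.30 and did not pass (adjusted p = 0.0725). Chek1, at 9.52 and 9.40 against 9.504 and 9.32, overlapped, and Atm was at 10.60 and 10.62 against 10.77 and 10.75 (0.15 ± 0.06, adjusted p = 0.128). The median of the 39 was 0.0039. Of 33 S phase genes limma called 0, and 10 had an unadjusted p under 0.05, and the authors' deposited table calls 0 of the 39. Brca1 no longer passed when any 1 of the 4 libraries was left out, and Brca2 passed only without ethanol replicate 1. No member was called without either tamoxifen library, and without ethanol replicate 2 the 1 member called was lower and so neither of these.

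**Figure D3:**
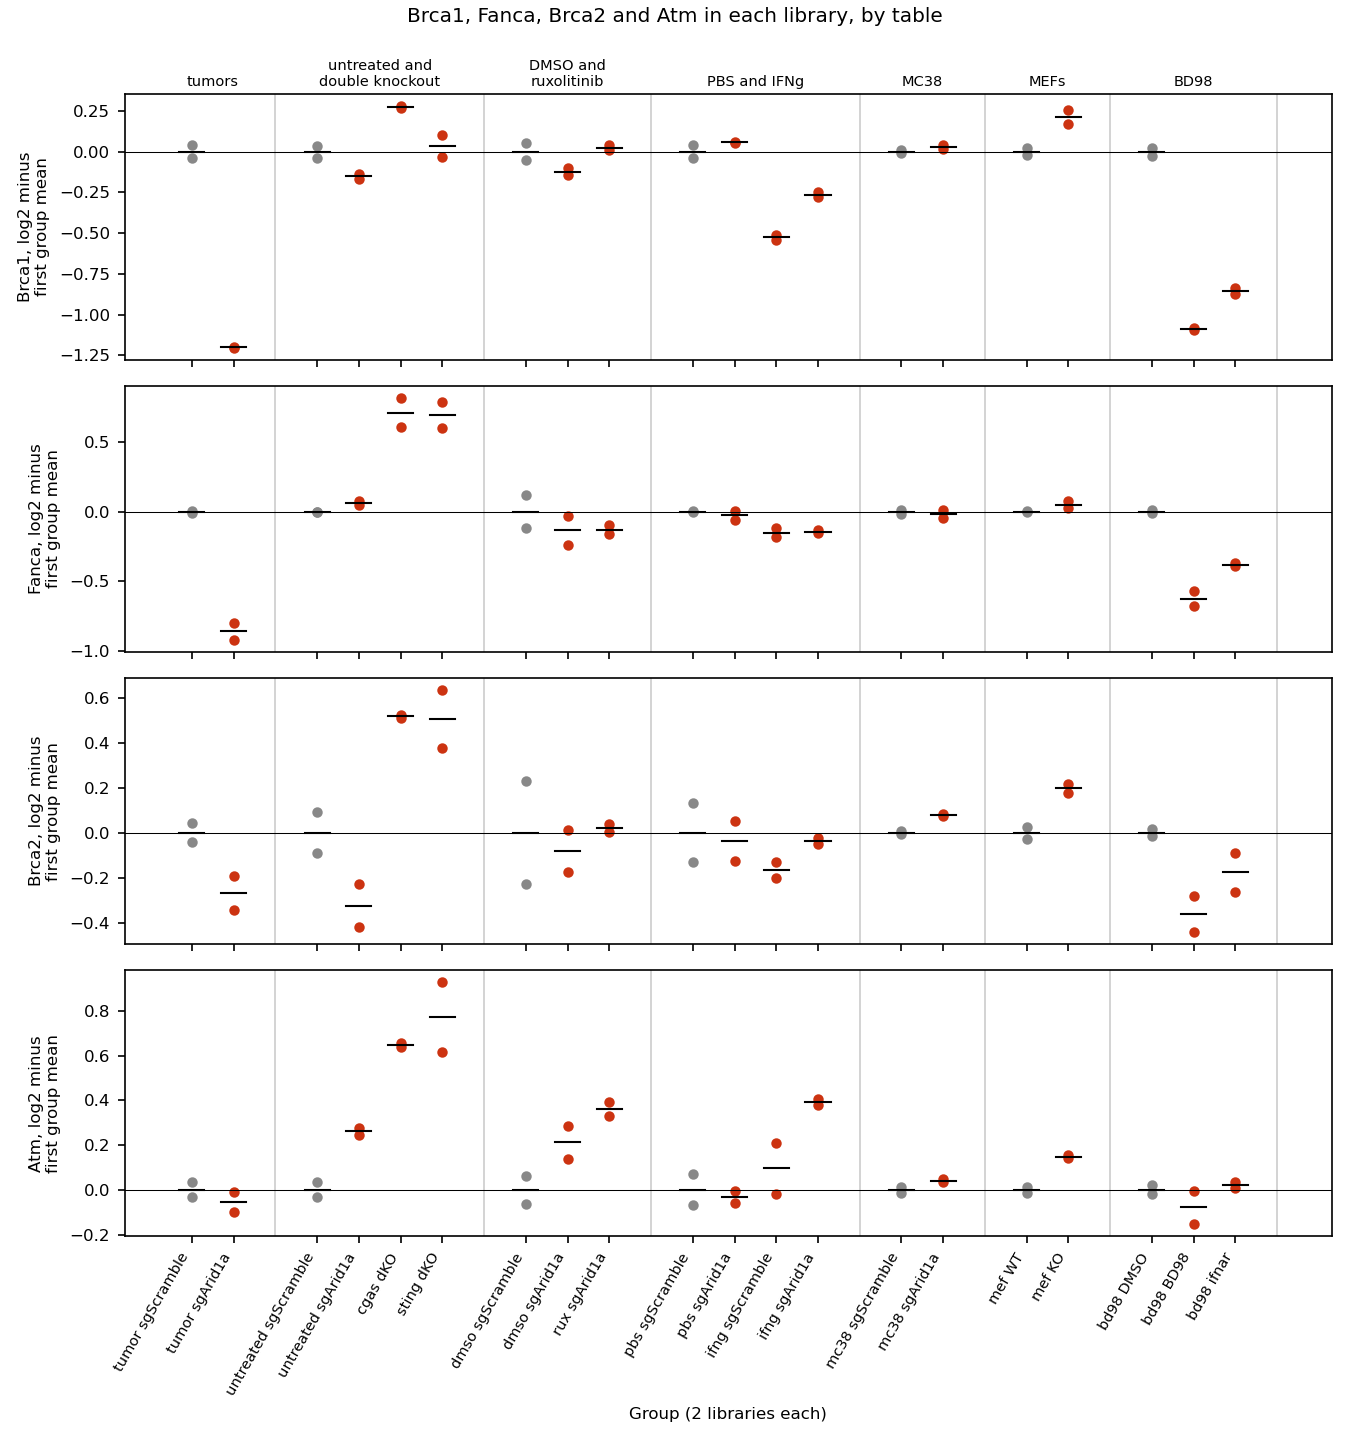
Points are single libraries of Brca1, Fanca, Brca2 and Atm, drawn as the log2 value minus the mean of the first group of each table (grey, with the other groups in red); black bars are group means and tables are separated by vertical lines. Brca1 lies far below its controls in sgArid1a tumors, with IFNγ and with BD98, and closer to them in untreated and DMSO cultures, whereas Brca2 and Fanca are highest in the double knockout libraries.

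The libraries labelled Cgas or Sting double knockout, each set against the same untreated sgArid1a libraries, differed in some of these RNAs. In those labelled Cgas double knockout 10 of the 39 were higher and 0 lower, where 12.2% of genes were higher and 16.5% lower. In those labelled Sting double knockout 10 were higher and 0 lower, where 13.9% were higher and 17.9% lower. The medians were 0.19 and 0.23. Since both comparisons share their control libraries, their values are given side by side and not as 2 separate supports.

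Brca2 was at 8.72 and 8.53 in sgArid1a cells, 9.47 and 9.46 under the Cgas label and 9.33 and 9.58 under the Sting label. It stood at 9.04 and 8.86 in sgScramble cells, below all 4 double knockout libraries. The rises over sgArid1a were 0.84 ± 0.12 (n = 2 per group, adjusted p = 0.000146) and 0.83 ± 0.12 (adjusted p = 0.000158). Fanca was at 9.34 and 9.31 in sgArid1a cells against 10.08 and 9.87, and 9.87 and 10.05, rises of 0.65 ± 0.10 and 0.63 ± 0.10 (adjusted p = 0.000458 and 0.000548). Its sgScramble values, 9.26 and 9.27, were close to those of sgArid1a cells. Zfp276, which overlaps Fanca, was at 0.43 (adjusted p = 0.0225) and 0.32 (adjusted p = 0.0712). Fanci rose by 0.33 and 0.36, and Polg, which overlaps it, was at 0.34 (adjusted p = 0.0318) and 0.29 (adjusted p = 0.0573).

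Fancd2 was at 10.17 and 10.15 in sgArid1a cells against 10.64 and 10.53, and 10.51 and 10.68, rises of 0.43 and 0.44. Atm, at 10.34 and 10.31, was at 10.72 and 10.70, and at 10.68 and 10.99, rises of 0.39 and 0.51. Topbp1, at 11.58 and 11.53, was at 11.89 and 11.90, and at 11.99 and 12.09, rises of 0.33 and 0.48. All of these double knockout libraries lay above every sgArid1a and every sgScramble library. Timeless was at 9.51 and 9.22 against 9.88 and 9.83 with the Cgas label, a rise of 0.49 ± 0.12 (adjusted p = 0.00879), and Xrcc3, a recombinase paralog, at 8.39 and 8.35 against 9.04 and 8.68 (0.49 ± 0.13, adjusted p = 0.0135). Brca1 was called with the Cgas label (0.42 ± 0.09, adjusted p = 0.00300) and did not pass with the Sting label (0.19 ± 0.09, adjusted p = 0.122). That difference between labels was not tested.

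Fold changes in these 2 comparisons went with transcript length. Among all tested genes of at least 5000 bases, 29.1% were higher with the Cgas label and 35.5% with the Sting label, and among those under 2000 bases 3.93% and 3.06%. Of the 13 members of at least 5000 bases, 6 and 7 were called higher, and of the 7 under 2000 bases 0 and 0. Over the 39 genes, Spearman's rho of fold change and length was 0.515 and 0.655, and over all tested genes 0.433 and 0.493. The longest members are Atm (11898 bases) and Brca2 (11104 bases). Genes share their libraries, so these correlations are descriptions. Brca2 rose by 0.84 where the median of all genes of at least 5000 bases was 0.19 with the Cgas label, and by 0.83 where it was 0.22 with the Sting label. The part of length in the rises was not tested further. S phase genes split, 6 up and 7 down of 33 with the Cgas label and 7 up and 6 down with the Sting label, where Pcna fell by 1.18. Rmi1, another subunit of the dissolving complex, fell by 1.68 with the Sting label, and the replication kinase Cdc7 rose by 0.78.

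The counts of members rested on single libraries. With the Cgas label there were 6 calls without sgArid1a replicate 1 or Cgas replicate 2, and 3 without sgArid1a replicate 2 or Cgas replicate 1. With the Sting label there were 4 without 1 of the 2 Sting libraries, the column the authors number 18. With the Cgas label, the authors' deposited table has 15 of the 39 higher and 2 lower, and with the Sting label 15 higher and 0 lower. The share of all genes called there is not given here, so these counts cannot be set against all genes.

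Blocking interferon signalling in sgArid1a cells gave no call among these genes. With anti-IFNAR, limma called 0 of the 39, where 0% of 11686 genes were higher and 0.0171% lower, and 0 had an unadjusted p under 0.05. Brca1 was at 11.28 and 11.30 untreated and 11.25 and 11.29 with the antibody, and the groups overlapped. With ruxolitinib 0 were called, where 0.0255% of genes were higher and 0.195% lower, and 2 of the 39, Fance and Chek1, had an unadjusted p under 0.05. Brca1 was at 11.42 and 11.47 with DMSO and 11.58 and 11.61 with ruxolitinib, a difference of 0.15 ± 0.08 (adjusted p = 0.539), and Chek1 at 10.59 and 10.48 against 10.77 and 10.71 (0.20 ± 0.09, adjusted p = 0.494). With these errors, differences of this size could not be told from none. The medians of the 39 were 0.02 and 0.09.

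IFNγ moved Brca1 and several partners in opposite directions. In the libraries labelled sgScramble 8 of the 39 rose and 5 fell after 24 h, where 15.7% of 12357 genes rose and 19.3% fell. The members' shares there were near those of all genes. With libraries centred on their median 10 of the 39 rose and 3 fell. In the libraries labelled sgArid1a 17 of the 39 rose and 4 fell, where 20.9% of genes rose and 21.3% fell. Of all tested genes with transcripts of at least 5000 bases 37% rose under that label, and of those under 2000 bases 12.2%. Of the 13 members of at least 5000 bases 7 rose, and of the 7 under 2000 bases 3. The part of length in these rises was not tested. By role, 4 recombination, 2 end-processing, 5 Fanconi and 6 checkpoint genes rose there. The medians were 0.06 and 0.10.

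Under the sgScramble label Brca1 was at 13.08 and 12.997 in the PBS libraries and at 12.50 and 12.53 after IFNγ, a fall of 0.52 ± 0.04 (n = 2 per group, adjusted p = 8.36e-09) that ranked 255 from the lowest of 12357 genes. Under the sgArid1a label it was at 13.10 and 13.09 against 12.79 and 12.76, a fall of 0.32 ± 0.04 (adjusted p = 2.51e-06). The treated libraries lay below the PBS libraries under both labels. Rad50 was at 12.07 and 12.04 against 11.79 and 11.80 with the sgScramble label, a fall of 0.26 ± 0.04 (adjusted p = 3.14e-05), and fell by 0.13 with the sgArid1a label. Fanca fell by 0.15 and 0.12 and Rad51d by 0.11 and 0.14.

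Fancc was at 8.72 in both PBS libraries and 8.97 and 9.03 with IFNγ under the sgScramble label, a rise of 0.28 ± 0.05 (adjusted p = 0.000279), and at 8.71 and 8.68 against 8.92 and 8.98 under the sgArid1a label (0.26 ± 0.05, adjusted p = 0.000498). Rad51c, a recombinase paralog, was at 9.06 and 9.15 against 9.42 and 9.32, and at 9.17 and 9.11 against 9.36 and 9.46, rises of 0.27 ± 0.06 under both labels. Xrcc3, which binds it, was at 9.81 and 9.76 against 10.03 and 10.01 under the sgScramble label (0.23 ± 0.05, adjusted p = 0.000994) and rose by 0.22 under the sgArid1a label. These 3 genes rose under both labels, whereas Brca1 fell. Fancd2 rose by 0.17 and 0.23. Under the sgArid1a label Atm was at 11.43 and 11.48 against 11.89 and 11.86, a rise of 0.43 ± 0.06 (adjusted p = 2.52e-05), and Brip1 at 10.60 and 10.52 against 10.79 and 10.83, a rise of 0.25 ± 0.05 (adjusted p = 0.000325). Chek1 rose by 0.17 there. The count of 21 calls was 13 without PBS replicate 1 and 12 without IFNγ replicate 2 of that label.

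Between the guide labels of that experiment, 0 of the 39 differed with PBS by limma, where 2.37% of genes were higher and 0.348% lower, and 2, Mre11a and Tipin, had an unadjusted p under 0.05. In PBS Fancd2 was at 11.31 in both sgScramble libraries against 11.25 and 11.28, Chek1 at 10.39 and 10.50 against 10.41 in both, and Atm at 11.56 and 11.42 against 11.43 and 11.48. With IFNγ 4 were higher under the sgArid1a label and 0 lower, where 4.03% of genes were higher and 2.7% lower. They were Atm, at 11.47 and 11.70 against 11.89 and 11.86 (0.30 ± 0.06, adjusted p = 0.00417), Brca1 (0.26 ± 0.04, adjusted p = 0.000138), Brip1 (0.21 ± 0.05, adjusted p = 0.00790) and Rad50 (0.18 ± 0.04, adjusted p = 0.00577). Their IFNγ values under the 2 labels, given above for Brca1, were 10.56 and 10.64 against 10.79 and 10.83 for Brip1 and 11.79 and 11.80 against 11.94 and 11.999 for Rad50, with no overlap. With IFNγ, Fancd2 was at 11.46 and 11.50 against 11.49 and 11.50, and Chek1 at 10.51 and 10.55 against 10.57 and 10.59.

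All 4 genes are among the 13 members of at least 5000 bases, and of all tested genes of that length 6.09% were higher and 2.06% lower, with a median of 0.03. Whether the guide label changed the response to IFNγ was tested as an interaction, and 0 of the 39 passed in limma, where 0.696% of genes were higher and 0.186% lower. Atm, Brca1, Brip1 and Rad50 had unadjusted p under 0.05 there, with interaction terms of 0.33 ± 0.09, 0.20 ± 0.05, 0.19 ± 0.06 and 0.13 ± 0.05 (adjusted p = 0.109, 0.112, 0.283 and 0.347). Without IFNγ sgScramble replicate 2, 3 members passed. The count of 4 between labels was 2 without IFNγ sgArid1a replicate 2.

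**Figure D4:**
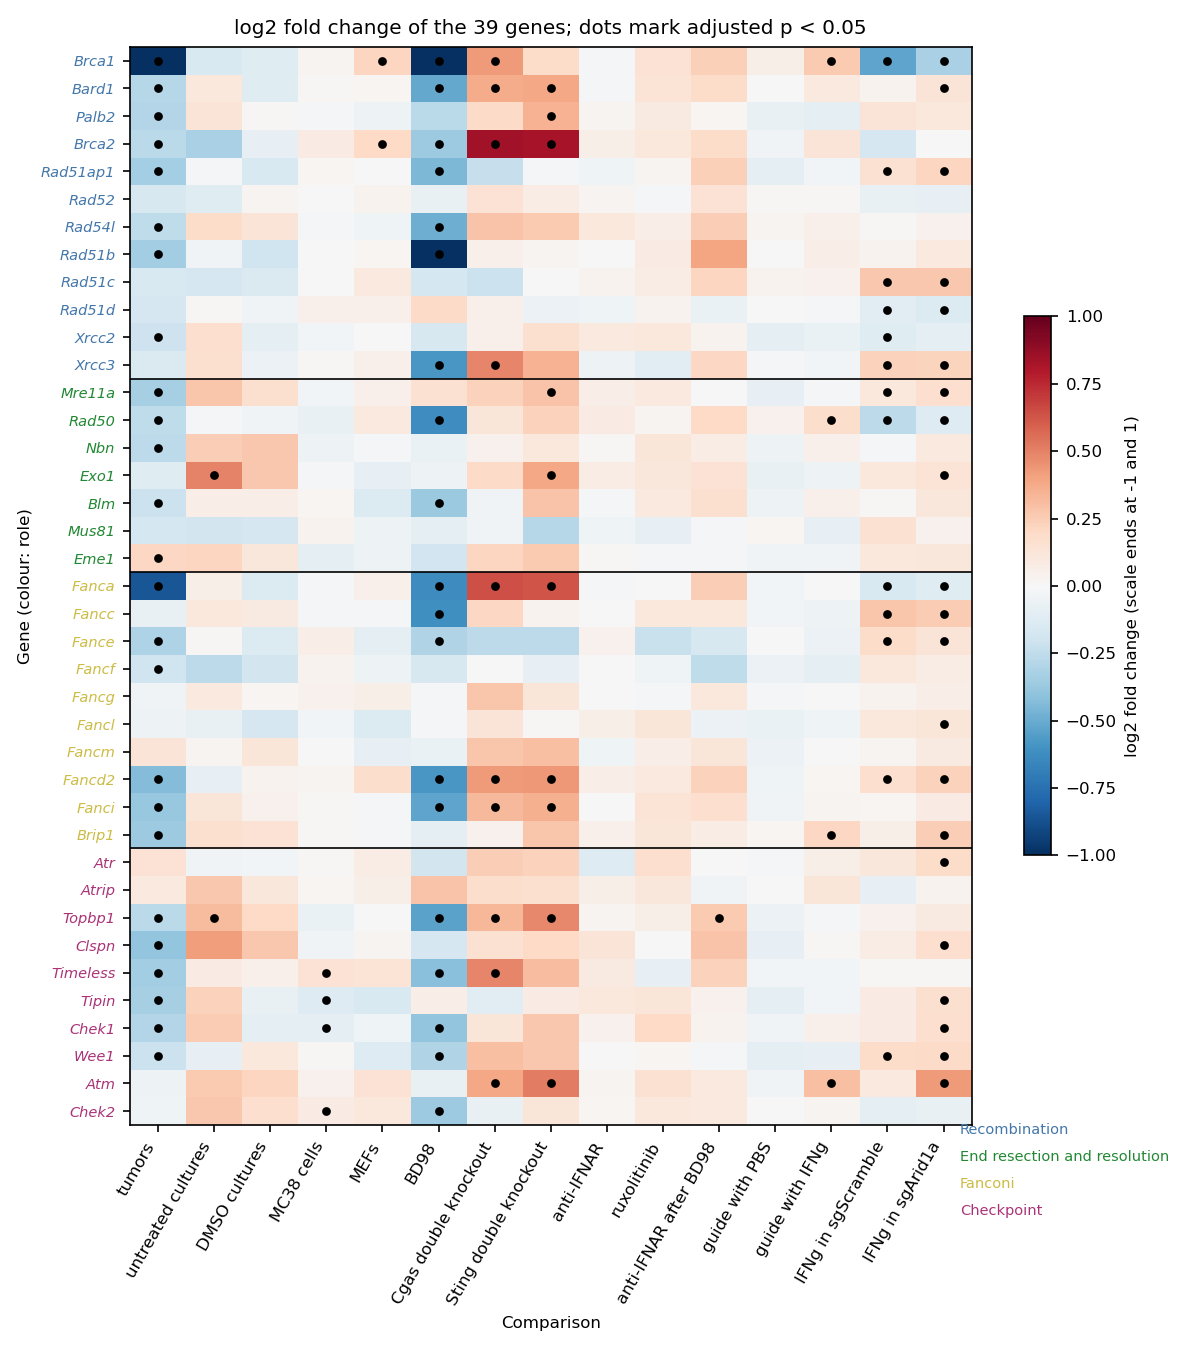
Rows are the 39 genes in order of role and columns the comparisons; colour is the log2 fold change, limited to -1 and 1, and dots mark adjusted p under 0.05. The tumor and BD98 columns are mostly blue, with 24 and 19 genes called lower, and the 2 double knockout columns hold 10 dots each on red. The columns of DMSO cultures, anti-IFNAR, ruxolitinib and the guide with PBS hold none.

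**Figure D5:**
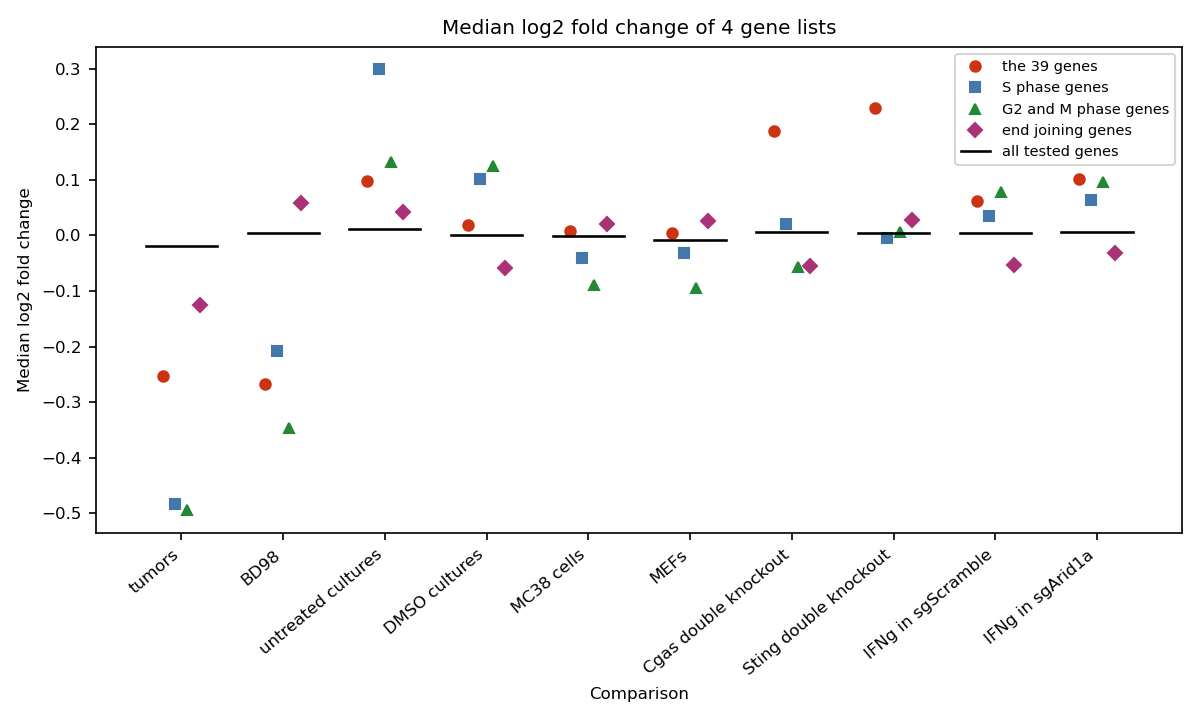
Points are the median log2 fold changes of the 39 genes and of the S phase, G2 and M phase and end joining genes in 10 comparisons, and black lines are the medians of all tested genes. The 39 genes move with both cell cycle lists in tumors (-0.25, -0.48 and -0.49) and with BD98 (-0.27, -0.21 and -0.35), and lie above them in the libraries labelled double knockout.

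Across the members, levels per length were compared in the BD98 experiment, where counts are given. In the DMSO libraries, as mean CPM per kilobase of transcript, Rad51ap1 stood highest at 57.3, followed by Topbp1 at 56.4 and Tipin at 55.8, where the 2 libraries of Rad51ap1 (61.7 and 52.8) and of Tipin (60.04 and 51.5) spanned both values of Topbp1 (56.5 and 56.3). Brca1 followed at 34.8, Fanca at 28.5 and Rad50 at 28.3. The lowest were Palb2 at 5.06, Brca2 at 5.67, Atr at 6.66, Fancc at 7.14 and Rad51b at 7.16. Brca1 thus stood far above Palb2 and Brca2, with which it acts, and above its partner Bard1 at 9.07.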

How the data were processed

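Polyadenylated RNA of mouse cells and tumors was sequenced with a stranded kit, per the labels' protocols. Reads were aligned to mm10 with STAR 2.5.3a and quantified with HOMER, per the submitters' processing notes; the strand setting of the counting is not given in the sources used here. The authors deposited raw gene counts for the BD98 experiment. For the other 7 gene tables the authors deposited normalized log2 values, and the file headers do not name the transformation. The authors' tables of log2 fold changes and adjusted p-values were used only where named.

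Log2 values were tested with limma 3.58.1 (R 4.3.3) with a trended prior, 1 fit per table over all its groups, for genes whose mean log2 value reached 4 and with no pseudocount. Counts were tested with edgeR 4.0.16 (quasi-likelihood, TMM, filterByExpr) and, as an alternative, DESeq2 1.42.0; their levels are shown as log2(CPM + 1). P-values were adjusted by Benjamini-Hochberg over all genes tested, and errors are standard errors. Counts at an unadjusted p under 0.05 are given without the share of all genes at that threshold. The scripts were tested on simulated data. Tables were normalized separately, so levels were compared only within a table. Exon overlaps come from the GENCODE annotation of the same genome, and promoter sequences from RefSeq (GRCm38.p6).

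Members and lists were chosen with earlier results of these data known. Every library's value is given for up to 5 called members per comparison with the largest change and no overlap between groups, for Brca1, Fancd2, Chek1 and Atm where Arid1a was lost, and for Arid1a, Mb21d1 and Tmem173; of the other lists the largest called rise and fall may be named. Other members are named with their fold changes. There are 10 columns of no sample in the gene tables, which were not used, nor was the table of repeat elements. The depth of each library, from 8700000 to 38800000 reads, limits the precision of low genes. Alternatives were other filters, median centring, only the 2 groups compared, the replicate block and leaving out each library.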

Additional observations from a re-analysis of the deposited data

Results flagged for a closer look

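Topbp1, the activator of the kinase Atr, was called in opposite directions with the same pair of guides. It was at 12.57 and 12.60 in sgScramble tumors and 12.35 and 12.28 in sgArid1a tumors, a log2 fold change of -0.27 ± 0.06 (n = 2 per group, limma adjusted p = 0.0018). In untreated cultures it was at 11.20 and 11.28 against 11.58 and 11.53, a log2 fold change of 0.32 ± 0.09 (adjusted p = 0.0309). The untreated call was lost with only the 2 groups in the fit (adjusted p = 0.116), and without sgScramble replicate 1 (0.0648), sgArid1a replicate 1 (0.21) or sgArid1a replicate 2 (0.139), while its direction was the same. Both libraries of each sgArid1a group moved the same way against their controls. The difference between tumors and cultures was not tested, because the tables were normalized separately.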

How the results depend on the processing

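Counts below are of the 39 genes called. The shares of all tested genes called under each alternative are not given here, so these counts cannot be set against all genes. With only the 2 groups compared in the fit, the count was 1 in untreated cultures (2 in the fit over all groups), 19 with the Cgas label and 19 with the Sting label (10 each), and 0 for anti-IFNAR after BD98 (1). With libraries centred on their median, it was 1 in DMSO cultures (0) and 17 with the Sting label (10). With no filter on low values it was 2 in MC38 cells (4), and with a mean log2 value from 6 upward it was 1 in MEFs (2). The cause of these shifts was not tested.

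Leaving out each library in turn gave 20 to 25 calls in tumors, 0 to 7 in untreated cultures, 0 to 10 in DMSO cultures, 0 to 5 in MC38 cells, 0 to 1 in MEFs, 19 to 21 with BD98, 3 to 6 with the Cgas label, 4 to 13 with the Sting label, 0 to 5 for anti-IFNAR after BD98, 2 to 4 between guide labels with IFNγ, 9 to 13 for IFNγ under the sgScramble label, 12 to 18 under the sgArid1a label and 0 to 3 for the interaction. A group left with 1 library was assumed to vary like the others. Tumors and BD98 thus stayed within 1.5 times their counts of 25 and 19 under every alternative run, and DESeq2 also called 19 with BD98.

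Replicate numbers are shared between groups, but nothing in the labels says that they mark a shared culture or day. With 2 pairs, deviations of same-numbered libraries correlated at -0.51 in tumors and 0.686 in MEFs. With the replicate block the count was 20 in tumors, 1 in untreated cultures (fitted without the Sting libraries), 14 in MEFs (8 higher, 6 lower), 2 for anti-IFNAR after BD98, 6 in MC38 cells and 20 with BD98. No paired analysis was possible for the Sting label because its titles are numbered 1 and 2 and its columns 17 and 18, and nothing ties the columns to the titles. Eme1, the 1 member higher in tumors, no longer passed with the block (adjusted p = 0.0836). Crossing the numbers in tumors, an alternative chosen after seeing the data, gave 33 calls. Of 983 values of single genes under alternatives, 832 kept their direction and call, 151 kept their direction and no longer passed, and 0 changed direction. These 983 values are only of members called in the main fit of a comparison. New calls cannot appear among them, and a change of direction was unlikely in advance. With 2 libraries per group, small differences of genes with few reads may go undetected.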
